A study of Mus musculus with 8 samples.

Results

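The clustered histone genes were taken as every row whose symbol starts with Hist1h, Hist2h, Hist3h or Hist4h. There were 73 such rows of 23746, with 67 distinct symbols, since 6 symbols stood at 2 loci each. Where a symbol had 2 rows, the row of lower position is called copy 1 and the other copy 2. The rows were measured in 8 RNA libraries from CD8+ T cells of BALB/c mice that bind the AH1 tetramer, which displays a tumour antigen peptide. The groups were term-diff cells of Cd69-/- mice, term-diff cells of wild-type mice, stem-like cells of Cd69-/- mice and stem-like cells of wild-type mice, with 2 libraries each. Cd69 encodes a surface protein that appears soon after T cell activation and keeps T cells from leaving tissue. Age, tumour, sort gates, the way Cd69 was deleted and any pooling of mice are not given in the sources used here, nor whether the 2 libraries of a group came from separate mice, so p-values measure the spread between these libraries, which may be technical.

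Histones H2A, H2B, H3 and H4 make up the protein core around which chromosomal DNA is wrapped, and the linker histone H1 binds where the DNA enters and leaves that core. Their clustered genes are transcribed mainly while a cell copies its DNA. The messages carry no poly(A) tail and end instead in a short stem-loop that the protein SLBP binds, so they can be measured in total RNA, as here, more fully than in RNA selected by its tail. Tumour-specific CD8+ T cells are known to divide as they leave the stem-like state, which is the setting in which replication-dependent histone messages are of interest.

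Of the 73 rows, 6 encode H1, 22 H2A, 19 H2B, 12 H3 and 14 H4. They lay on mouse build mm10 in 2 blocks of chromosome 13 (26 rows at chr13:21715763-22043610 and 31 rows at chr13:23531044-23934851), in the Hist2 block of chromosome 3 (12 rows, chr3:96219916-96270192), in the Hist3 block of chromosome 11 (3 rows) and, for Hist4h4 alone, on chromosome 6. Levels are FPKM, a fragment count scaled by transcript length and library total. Libraries held 2055401 to 2591060 fragments as implied by the limits the authors gave with each FPKM. Among the histone rows 67 had at least 10 implied fragments in every library and 16 had at least 100, with a highest value of 2807. Rows were tested where they reached 1 FPKM in at least 2 libraries, which kept 71 of the 73 and 9782 rows in all. The rows left out were Hist1h1t, the testis-specific H1 gene, whose second highest library stood at 0.310 FPKM, and Hist2h2be, an H2B gene, at 0.383. The lowest row inside the filter by that measure was Hist3h2bb-ps, an H2B pseudogene, at 2.48. Hist1h4n copy 1 was at or below 0.0189 FPKM in 6 libraries and at 7.47 and 5.25 in the second Cd69-/- and the second wild-type term-diff library, on at most 2.96 fragments, so it passed the filter only through term-diff cells and its fold changes carry no weight.

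Histone genes are near copies of each other, and this limits how far single rows can be told apart. In the GENCODE M21 transcripts, 61 of the 67 symbols shared at least 1 stretch of 76 bases, the read length, with another gene, and 26 shared more than 50% of theirs. The median share was 0.721% for H1, 67.7% for H2A, 36.6% for H2B, 58.7% for H3 and 24.4% for H4. Hist1h1b and Hist1h1a of the H1 genes, Hist1h2aa of the H2A genes and Hist2h4 of the H4 genes shared none. In addition, 12 rows overlapped another row of the set, among them Hist1h2ao and Hist1h2ap at both of their loci, Hist2h2aa1 and Hist2h2aa2 at both of theirs, and Hist1h1e with the long model of Hist1h2be. Levels of such rows are uncertain one by one, because the authors' counting could have split shared reads between them.

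The stem-loop that ends the messages is shown first, because it is the feature the family shares most clearly and because its letters separate the H4 messages from the others. A stem-loop of the histone kind was found in GENCODE M21 transcripts of 46 of the 67 symbols, or 68.7%, against 134 of all 55341 genes, or 0.242%. Each of 8 exact forms is given with 1 gene that carries it, read from the transcript 5′ to 3′, with the 16 bases of the stem-loop in capitals.
Hist1h1d: caaacGGCTCTTTTCAGAGCCacccac
Hist1h2bb: ccaaaGGCTCTTTTAAGAGCCacccac
Hist2h2ac: aaaaaGGCTCTTTTTAGAGCCaccaaa
Hist1h3g: ttaaaGGCTCTTCTTAGAGCCacccat
Hist1h4d: ccaaaGGCCCTTTTCAGGGCCactacc
Hist2h4: ctaacGGCCCTTTTTAGGGCCaaccac
Hist1h4b: caaaaGGTCCTTTTCAGGACCactcac
Hist1h4a: ccaaaGGCCCTTCTCAGGGCCgcccac
The form of Hist1h1d stood in 26 symbols, 3 of H1, 10 of H2A, 8 of H2B and 5 of H3, and in 0 of the 13 H4 symbols. The form of Hist1h4d stood in 7 symbols, all of H4, and 12 of the 13 H4 symbols carried 1 of the 4 forms seen only in H4 here. Hist1h1b, Hist1h1a and the highest row of all, Hist1h2ak, had no match. Transcripts without a match ran from 312 bases in Hist1h4k to 2620 in Hist2h2be. In the tables, 50 of the 73 rows spanned a multiple of 3 bases, from 312 bases to 37455 for the long model of Hist1h2be, and 31 spanned under 400; whether a model ends before its stem-loop was not tested. In Hist1h1d the annotated transcript ran on for 4884 bases past the stem-loop and in Hist4h4 for 2445, whereas it stopped after 28 bases in Hist1h4b.

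Promoters are shown next for genes the results turn on: the H1 genes with the largest difference, an H1 gene that did not pass the test, an H2B gene of a divergent pair and an H4 gene of low level. The windows are those of RefSeq on GRCm38.p6, the assembly also named mm10, 250 bases before to 50 after the start, 5′ to 3′ along the gene. Capitals mark the TATA box letters TATAAA and the CCAAT box. They also mark AAACACA, known from H1 promoters, and the octamer ATTTGCAT, known from H2B promoters. Each was searched on both strands, with no overlaps removed.
Hist1h1b (RefSeq H1f5, chr13:21780576-21780875, minus strand): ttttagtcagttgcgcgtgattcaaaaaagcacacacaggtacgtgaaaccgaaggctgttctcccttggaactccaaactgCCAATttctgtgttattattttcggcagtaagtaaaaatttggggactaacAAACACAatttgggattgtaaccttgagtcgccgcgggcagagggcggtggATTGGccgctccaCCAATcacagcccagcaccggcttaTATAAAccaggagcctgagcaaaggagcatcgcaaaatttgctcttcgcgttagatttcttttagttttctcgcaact
Hist1h1d (RefSeq H1f3, chr13:23554782-23555081, plus strand): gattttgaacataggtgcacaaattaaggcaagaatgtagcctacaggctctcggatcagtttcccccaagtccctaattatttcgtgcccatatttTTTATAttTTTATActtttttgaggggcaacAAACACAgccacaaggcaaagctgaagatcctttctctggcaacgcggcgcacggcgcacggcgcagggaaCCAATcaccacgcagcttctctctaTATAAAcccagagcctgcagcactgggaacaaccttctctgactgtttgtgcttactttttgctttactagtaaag
Hist1h1a (RefSeq H1f1, chr13:23763418-23763717, plus strand): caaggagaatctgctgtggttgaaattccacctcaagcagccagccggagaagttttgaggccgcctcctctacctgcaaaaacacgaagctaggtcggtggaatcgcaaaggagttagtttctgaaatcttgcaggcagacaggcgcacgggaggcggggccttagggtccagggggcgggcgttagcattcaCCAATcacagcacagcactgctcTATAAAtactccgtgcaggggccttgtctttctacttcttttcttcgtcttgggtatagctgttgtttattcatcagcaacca
Hist1h2bg (RefSeq H2bc8, chr13:23571150-23571449, plus strand): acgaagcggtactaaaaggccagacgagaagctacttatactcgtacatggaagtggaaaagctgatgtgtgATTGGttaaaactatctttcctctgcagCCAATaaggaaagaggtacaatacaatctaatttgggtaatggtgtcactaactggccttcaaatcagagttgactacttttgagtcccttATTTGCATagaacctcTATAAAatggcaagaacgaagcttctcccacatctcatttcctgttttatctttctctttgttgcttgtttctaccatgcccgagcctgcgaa
Hist4h4 (RefSeq H4f16, chr6:136804382-136804681, minus strand): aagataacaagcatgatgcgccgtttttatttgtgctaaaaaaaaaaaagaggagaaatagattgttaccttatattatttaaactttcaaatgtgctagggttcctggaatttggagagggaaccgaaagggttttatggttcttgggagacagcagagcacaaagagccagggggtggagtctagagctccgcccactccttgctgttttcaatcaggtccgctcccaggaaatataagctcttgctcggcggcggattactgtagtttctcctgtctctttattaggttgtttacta
A window was matched for 62 of the 73 rows, through RefSeq's synonyms of the older symbols, and 61 of these windows were distinct. TATAAA stood in 35 of the 61 (57.4%), against 13.6% of 32851 RefSeq windows of the same length. CCAAT stood in 52 (85.2%, against 37.4%), among them every H1, H2A, H2B and H3 window but only 3 of 12 of H4. AAACACA stood in 9 (14.8%, against 7.18%), 5 of them among the 6 H1 windows, with Hist1h1a the H1 gene without it. The octamer letters stood in 13 (21.3%, against 1.74%), 7 of H2A and 6 of H2B. None of the 4 motifs stood in the window of Hist4h4.

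Clustered histone messages were higher in term-diff than in stem-like cells, in both genotypes and in every family. The FPKM of the 73 rows summed to 6721 and 7772 in the Cd69-/- term-diff libraries and to 3140 and 4238 in the Cd69-/- stem-like libraries. It summed to 6833 and 3914 in the wild-type term-diff libraries and to 3106 and 2688 in the wild-type stem-like libraries. The 2 subsets did not overlap within either genotype, but the second wild-type term-diff library lay below the second Cd69-/- stem-like library. As a share of all implied fragments, the rows took 0.758% and 0.947% in Cd69-/- term-diff, 0.784% and 0.463% in wild-type term-diff, 0.357% and 0.467% in Cd69-/- stem-like, and 0.401% and 0.313% in wild-type stem-like libraries. The mean sum was 1.96 times as high in Cd69-/- term-diff as in Cd69-/- stem-like cells and 1.85 times in wild type. In bulk samples like these, more cells that copy DNA and more histone message per cell cannot be told apart.

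**Figure D1:**
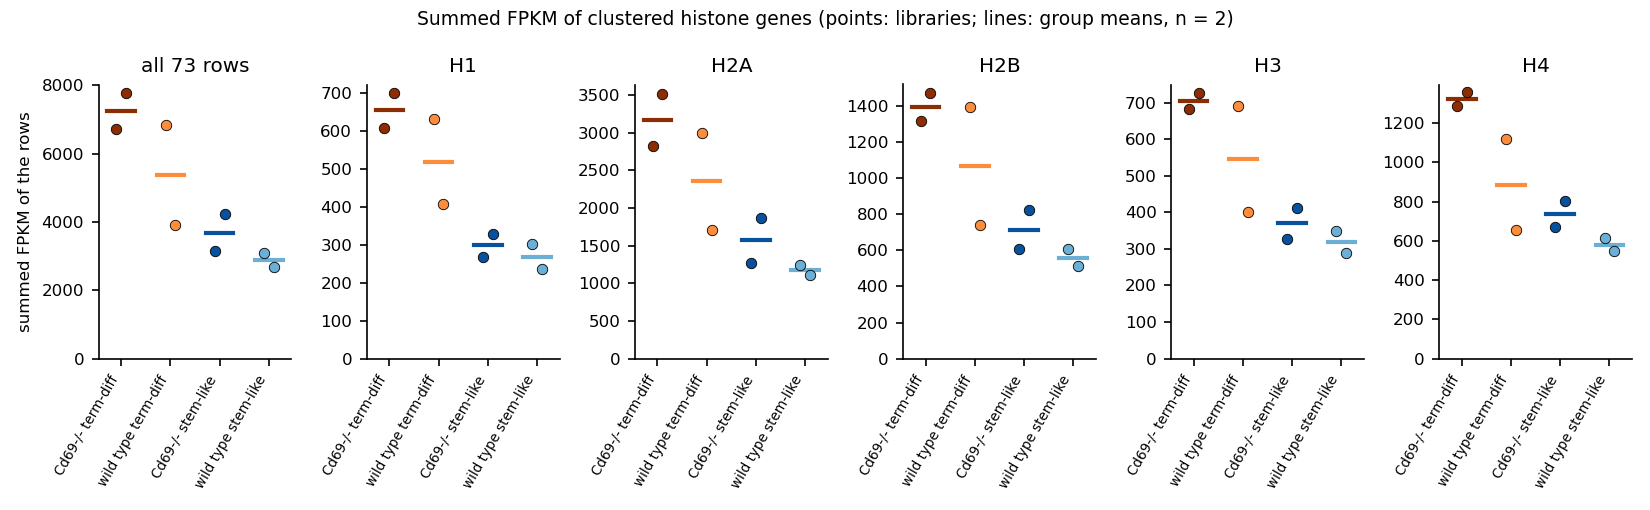
Summed FPKM of all 73 histone rows and of each family (y axis, from 0) in the 4 groups (x axis); points are libraries and lines are means of 2. Both term-diff libraries lie above both stem-like libraries of the same genotype in every panel, and the 2 wild-type term-diff libraries, at 6833 and 3914 for all rows, lie far apart.

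The family sums were higher in term-diff cells by different amounts, least for H4 in both genotypes. In Cd69-/- cells the mean sum in term-diff was 2.19 times that in stem-like cells for H1, 2.02 times for H2A, 1.95 times for H2B, 1.91 times for H3 and 1.79 times for H4. In wild-type cells it was 1.93 times for H1, 2.01 times for H2A, 1.91 times for H2B, 1.71 times for H3 and 1.53 times for H4. H4 rows held 16.4% and 16.8% of the summed FPKM in wild-type term-diff against 19.7% and 20.4% in wild-type stem-like libraries. In Cd69-/- cells they held 19.1% and 17.5% in term-diff against 21.4% and 19.0% in stem-like libraries. The H4 share was thus lower without overlap in wild-type term-diff cells, while the Cd69-/- subsets overlapped. H2A rows held 42.1% to 45.2% in term-diff and 39.8% to 44.1% in stem-like libraries, H2B rows 18.9% to 20.4% and 19.0% to 19.6%, H3 rows 9.36% to 10.2% and 9.75% to 11.2%, and H1 rows 8.99% to 10.4% and 7.77% to 9.72%. No test was run on these sums.

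Row by row, limma on log2(FPKM + 1) with Benjamini-Hochberg adjustment over all 9782 rows and a threshold of 0.05 was applied in each genotype and averaged over both. In Cd69-/- cells 14 of the 71 histone rows rose in term-diff and 0 fell, where 3.88% of all rows rose and 5.56% fell. In wild-type cells 13 of 71 rose and 0 fell, where 7.24% of all rows rose and 5.83% fell. Averaged over genotypes, 61 of 71 rose and 0 fell, where 10.5% of all rows rose and 9.93% fell. The median log2 fold change of the 71 rows was 0.93 in Cd69-/- cells, 0.81 in wild-type cells and 0.90 averaged, against -0.03, 0.06 and 0.02 over all rows. The value was above 0 for 71 of 71 rows in Cd69-/- (45.9% of all rows) and for 70 of 71 in wild-type cells (57.5% of all rows). The exception was Hist3h2bb-ps. Histone rows moved together between libraries, so they are not separate observations. In Cd69-/- stem-like cells 69 of 71 were higher in the second library. Both term-diff libraries stood above both stem-like libraries for 70 of 71 rows in Cd69-/- (24.5% of all rows) and 55 of 71 in wild-type cells (33.4% of all rows). All 4 term-diff libraries stood above all 4 stem-like libraries for 12 rows, where 10.9% of all rows did. Hist1h4n copy 1 is among the 71 although the filter fixed its direction. Without it the medians round to the same values except 0.89 averaged, 70 of 70 rows in Cd69-/- and 69 of 70 in wild-type cells were above 0, and 70 and 54 of 70 did not overlap.

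The counts within a genotype depended on single libraries, which were left out in turn with the lone remaining library assumed to vary like the other groups. Calls over all rows fell too in each of these fits, by differing amounts, so the counts below are not results about histone rows alone. The Cd69-/- count of 14 became 0 without the first stem-like or the second term-diff Cd69-/- library, 1 without the first term-diff, 6 without the second stem-like Cd69-/- library, and 45 without either wild-type term-diff library. The wild-type count of 13 became 47 without the second wild-type term-diff library and 2 without the first, 3 and 5 without the first and second wild-type stem-like library, and 5 without either Cd69-/- term-diff library. The averaged count of 61 became 21 without the second Cd69-/- term-diff, 23 without the first Cd69-/- stem-like and 37 without the second wild-type stem-like library, and lay between 47 and 69 without any other. The wild-type median of 0.81 was 0.43 without the first and 1.22 without the second wild-type term-diff library, and the medians without 1 library ran from 0.72 to 1.10 in Cd69-/- and from 0.67 to 1.08 in averaged cells. Rescaling each library to an equal sum of FPKM left 0, 1 and 1 of the Cd69-/-, wild-type and averaged calls. The medians were then 0.57, 0.98 and 0.80. The same rescaling left 30, 74 and 99 of all 9782 rows as risen, against 380, 708 and 1030 before. The loss of calls was thus not particular to the histone rows. Small RNA rows held 56.0% to 84.4% of the FPKM sums but 5.52% to 9.53% of the implied fragments.

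**Figure D2:**
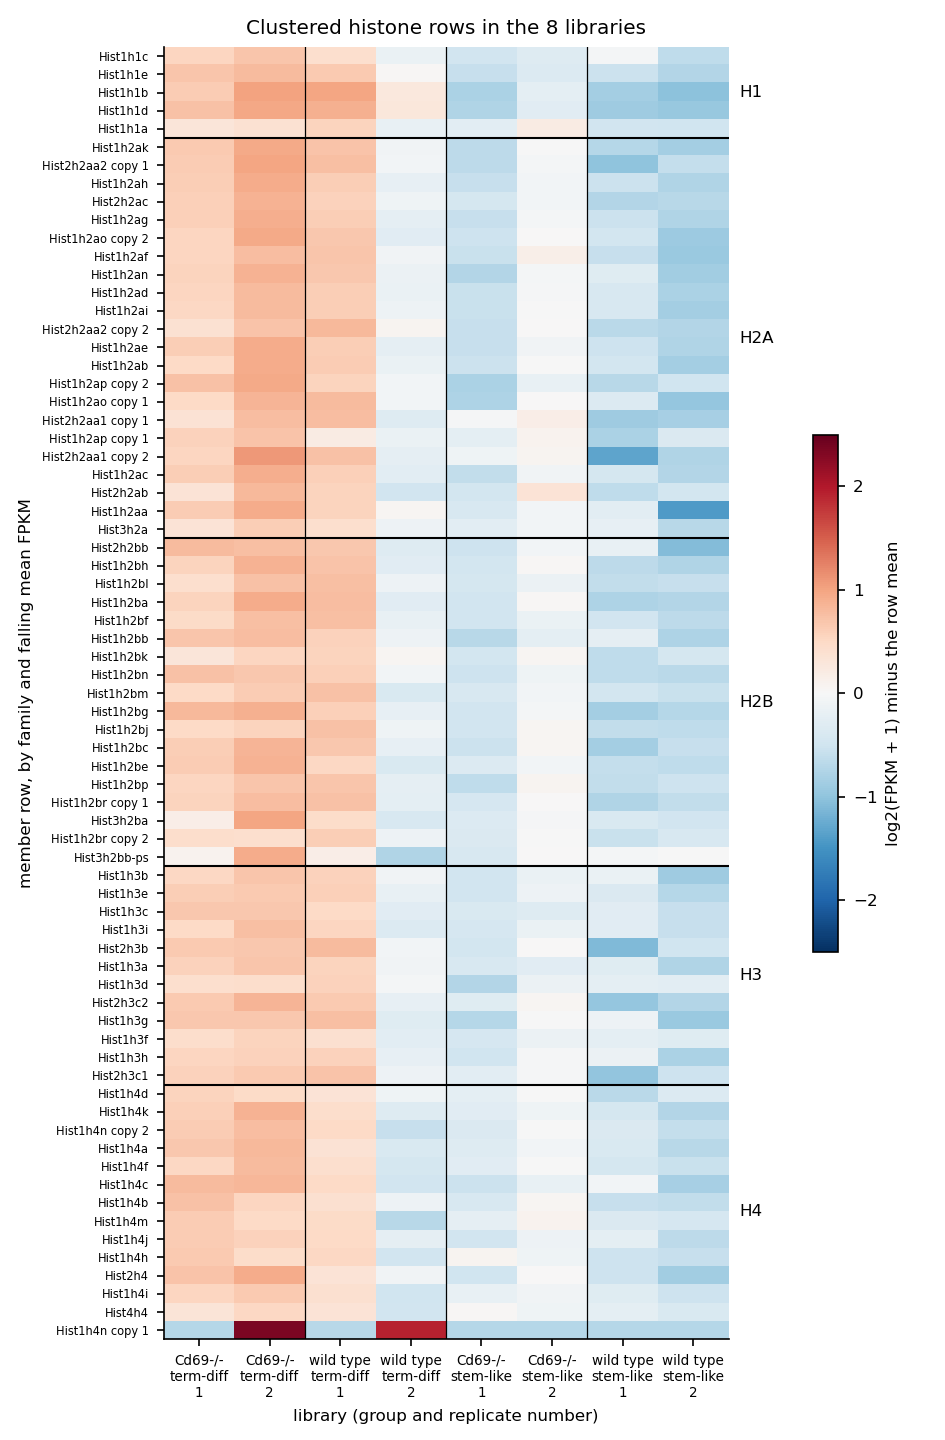
Colour gives log2(FPKM + 1) minus the row mean for 71 histone rows (y axis, by family) in the 8 libraries (x axis). The first wild-type and both Cd69-/- term-diff libraries are above the row mean in nearly all rows, and the second wild-type term-diff library is near or below it in most, apart from Hist1h4n copy 1, which rests on under 3 fragments.

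Apart from Hist1h4n copy 1, whose fold changes carry no weight, the linker histone genes Hist1h1b and Hist1h1d had the largest averaged changes. Hist1h1b, the gene RefSeq names H1f5, stood at 117 and 153 FPKM in Cd69-/- term-diff libraries, 151 and 91.2 in wild-type term-diff, 42.9 and 63.8 in Cd69-/- stem-like and 41.3 and 36.8 in wild-type stem-like libraries. All 4 term-diff libraries were above all 4 stem-like libraries. It rose by 1.34 ± 0.28 (log2 fold change ± standard error) in Cd69-/- (adjusted p = 0.0214), by 1.57 ± 0.28 in wild-type (adjusted p = 0.00898) and by 1.45 ± 0.20 averaged (adjusted p = 0.00143). Hist1h1d, named H1f3, stood at 68.9 and 81.1 FPKM in Cd69-/- term-diff, 76.3 and 49.7 in wild-type term-diff, 23.8 and 33.4 in Cd69-/- stem-like and 21.7 and 20.8 in wild-type stem-like libraries, again without overlap. It had the smallest adjusted p of the set, 0.000559 averaged, with a log2 fold change of 1.43 ± 0.16. For both genes the wild-type and averaged calls held without any 1 library, while the Cd69-/- call ended without the first Cd69-/- stem-like or the second Cd69-/- term-diff library, and for Hist1h1b also without the first Cd69-/- term-diff library. Hist1h1b shares no read-length stretch with another gene and Hist1h1d shares 1.44% of its own, counted over its whole annotated transcript.

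Hist1h1e, named H1f4, stood at 161 and 172 FPKM in Cd69-/- term-diff, 156 and 102 in wild-type term-diff, 65.7 and 78.1 in Cd69-/- stem-like and 68.0 and 59.1 in wild-type stem-like libraries. It rose in Cd69-/- (1.21 ± 0.22, adjusted p = 0.0117), in wild-type (0.98 ± 0.22, adjusted p = 0.0223) and in averaged cells (1.09 ± 0.15, adjusted p = 0.00174). The averaged call held without any 1 library, the Cd69-/- call ended without the first Cd69-/- stem-like or either Cd69-/- term-diff library, and the wild-type call ended without either wild-type stem-like or the first wild-type term-diff library. Hist1h1c, named H1f2, was the H1 gene of highest level and most fragments, with 234 and 264 FPKM in Cd69-/- term-diff, 217 and 145 in wild-type term-diff, 116 and 129 in Cd69-/- stem-like and 155 and 103 in wild-type stem-like libraries. Its wild-type libraries overlapped between subsets. It rose in Cd69-/- cells (1.02 ± 0.26, adjusted p = 0.0459) and averaged (0.75 ± 0.18, adjusted p = 0.0223), with a wild-type value of 0.48 ± 0.26 (adjusted p = 0.269), and leaving out any of the 4 Cd69-/- libraries ended the Cd69-/- and the averaged call; the averaged call also ended without the second wild-type stem-like or the first wild-type term-diff library. Hist1h1a, named H1f1, did not pass in any comparison: its averaged value was 0.52 ± 0.17 (adjusted p = 0.0655), on 27.6 ± 1.10 FPKM in Cd69-/- term-diff, 25.6 ± 9.35 in wild-type term-diff, 21.6 ± 5.11 in Cd69-/- stem-like and 15.2 ± 0.253 in wild-type stem-like libraries (SD, n = 2 each). In all, 4 of 5 H1 rows tested rose in the averaged comparison, with a median of 1.09. Hist1h1c and Hist1h1a lay below the averaged median of the 71 histone rows, 0.90.

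H2A rows had the highest sum in every library. The highest row was Hist1h2ak, an H2A gene, at 332 and 405 FPKM in Cd69-/- term-diff, 344 and 197 in wild-type term-diff, 133 and 208 in Cd69-/- stem-like and 127 and 116 in wild-type stem-like libraries. Its term-diff libraries were the higher ones within each genotype, and the second wild-type term-diff library lay below the second Cd69-/- stem-like library. The next by mean level was Hist2h2aa2 copy 1, at 366 ± 64.5 FPKM in Cd69-/- term-diff, 275 ± 108 in wild-type term-diff, 166 ± 49.7 in Cd69-/- stem-like and 119.9 ± 24.7 in wild-type stem-like libraries (SD, n = 2 each). In the averaged comparison Hist1h2ak rose by 1.12 ± 0.22 (adjusted p = 0.00902) and Hist2h2aa2 copy 1 by 1.15 ± 0.23 (adjusted p = 0.0101), and neither passed within a genotype. Hist2h2ac, an H2A gene of the chromosome 3 block, passed in Cd69-/- (0.99 ± 0.26, adjusted p = 0.0488) and in wild-type cells (0.95 ± 0.26, adjusted p = 0.0456). It stood at 260.1 and 313 FPKM in Cd69-/- term-diff, 256 and 159 in wild-type term-diff, 126 and 164 in Cd69-/- stem-like and 103 and 105 in wild-type stem-like libraries. Those calls are close to the threshold: they held in 2 and 1 of 8 fits without 1 library, while the averaged call (0.97 ± 0.18, adjusted p = 0.00696) held in all 8.

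Of the 22 H2A rows 21 rose in the averaged comparison, with values from 0.61 for Hist2h2ab, which did not pass, to 1.15. Of these rows Hist1h2ap copy 2 rose most in Cd69-/- cells (1.34 ± 0.26, adjusted p = 0.0155), at 102 and 119 FPKM in term-diff against 34.5 and 53.1 in stem-like Cd69-/- libraries. In wild-type cells it stood at 89.6 and 58.0 FPKM in term-diff against 37.1 and 42.8 in stem-like libraries (0.84 ± 0.26, adjusted p = 0.0690). Hist2h2aa1 copy 2 and Hist2h2aa2 copy 2, which overlap, rose in wild-type cells (1.29 ± 0.32, adjusted p = 0.0349, and 1.13 ± 0.28, adjusted p = 0.0334) and in the averaged comparison. In Cd69-/- cells they had values of 0.82 ± 0.32 (adjusted p = 0.157) and 0.83 ± 0.28 (adjusted p = 0.109). The wild-type call of Hist2h2aa1 copy 2 ended without the first wild-type stem-like, the first wild-type term-diff or either Cd69-/- stem-like library. That of Hist2h2aa2 copy 2 ended without either wild-type stem-like or the first wild-type term-diff library, and the Cd69-/- call of Hist1h2ap copy 2 ended without the first Cd69-/- stem-like or either Cd69-/- term-diff library. The other high rows Hist1h2ah, Hist1h2ag, Hist1h2ao copy 2 and Hist1h2af had averaged values of 0.97, 0.95, 0.95 and 0.95, all past the threshold in the full fit and in 6, 6, 4 and 5 of 8 fits without 1 library, at 99.0 to 345 FPKM in term-diff and 60.7 to 174 in stem-like libraries.

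Of 18 H2B rows tested 16 rose in the averaged comparison, with a median of 0.90; the rest were the Hist3 rows Hist3h2ba and Hist3h2bb-ps. Hist2h2bb was the highest H2B row, at 335 and 327 FPKM in Cd69-/- term-diff, 310.4 and 155 in wild-type term-diff, 135 and 185 in Cd69-/- stem-like and 169.8 and 90.9 in wild-type stem-like libraries. Its wild-type subsets overlapped, and its averaged call (0.94 ± 0.27, adjusted p = 0.0431) ended in 6 of 8 fits without 1 library. Hist1h2bg, whose promoter carries the octamer letters, rose in Cd69-/- (1.12 ± 0.25, adjusted p = 0.0291), in wild-type (0.99 ± 0.25, adjusted p = 0.0376) and in averaged cells (1.05 ± 0.18, adjusted p = 0.00429). It stood at 60.2 and 63.4 FPKM in Cd69-/- term-diff, 51.8 and 29.4 in wild-type term-diff, 23.8 and 32.6 in Cd69-/- stem-like and 18.3 and 20.2 in wild-type stem-like libraries. Hist1h2bb rose in Cd69-/- cells (1.21 ± 0.28, adjusted p = 0.0309), at 104 ± 4.31 FPKM in term-diff and 44.8 ± 9.97 in stem-like libraries (SD, n = 2 each), and had a wild-type value of 0.72 ± 0.28 (adjusted p = 0.130). The Cd69-/- calls of both rows ended without any 1 of the 4 Cd69-/- libraries, the wild-type call of Hist1h2bg held in 3 of 8 fits without 1 library, and the averaged calls held in all 8.

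Hist1h2aa and Hist1h2ba, known from mouse as the testis histones TH2A and TH2B, were measured in these T cells. Hist1h2ba stood at 115 and 147 FPKM in Cd69-/- term-diff, 132 and 63.5 in wild-type term-diff, 54.9 and 78.5 in Cd69-/- stem-like and 44.5 and 46.1 in wild-type stem-like libraries. Hist1h2aa stood at 13.6 and 17.0 FPKM in Cd69-/- term-diff, 12.9 and 8.76 in wild-type term-diff, 6.16 and 8.11 in Cd69-/- stem-like and 6.94 and 2.54 in wild-type stem-like libraries, with all term-diff libraries above all stem-like libraries. Hist1h2aa rests on 2.40 to 24.8 fragments a library but shares no read-length stretch with another gene, whereas Hist1h2ba shares 33.0% of its own. Both rose in the averaged comparison, Hist1h2aa by 1.07 ± 0.25 (adjusted p = 0.0176) and Hist1h2ba by 0.99 ± 0.23 (adjusted p = 0.0182). Hist1h1t, the testis H1 gene of the same block, was at 0 in both Cd69-/- term-diff libraries and at 0.156 to 0.327 FPKM in the other 6.

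Hist1h2aa and Hist1h2ba are 1 of 9 pairs of an H2A and an H2B row whose promoter windows overlapped on opposite strands, by 220 to 279 bases of the 300. All lay in the chromosome 13 blocks. Each of the 18 partners rose in the averaged comparison. Partners differed by 0.000807 to 0.417 in their log2 fold changes, and the widest gap was between Hist1h2ap copy 2 (1.09) and Hist1h2br copy 2 (0.67). Hist1h2br copy 2 had a mean of 3.53 FPKM against 66.9 for Hist1h2ap copy 2, and log2(FPKM + 1) understates changes of low rows. Hist1h2ap and Hist1h2br share 92.6% and 87.5% of their read-length stretches with other genes. Partner levels differed more than partner changes. The H2A partner had the higher mean FPKM in 7 of 9 pairs, as in Hist1h2ak at 233 FPKM against Hist1h2bn at 48.8. The H2B partner had it in the rest, as in Hist1h2ba at 85.2 against Hist1h2aa at 9.51. Hist1h2ak shares 26.1% of its read-length stretches with other genes and Hist1h2bn 71.57%. The part of shared reads and of model length in these levels was not tested. The octamer letters stood in the windows of both partners in 3 pairs, Hist1h2ah with Hist1h2bk, Hist1h2ae with Hist1h2bg, and Hist1h2aa with Hist1h2ba. Both strands were searched and the windows overlap, so the same octamer can be counted for both partners. Whether each partner has its own was not tested.

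**Figure D3:**
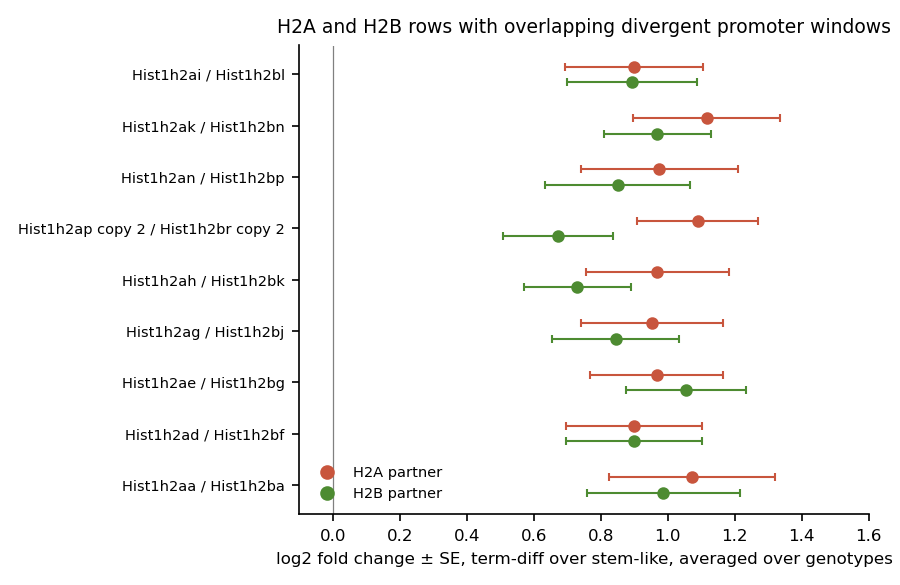
Log2 fold change of term-diff over stem-like cells averaged over genotypes (x axis) for both partners of the 9 divergent H2A and H2B pairs (y axis); points are limma estimates from 8 libraries and bars are standard errors. The bars of both partners overlap in every pair except Hist1h2ap copy 2 with Hist1h2br copy 2, at 1.09 and 0.67. Hist1h2br copy 2 is a low row, at a mean of 3.53 FPKM, and this scale understates changes of low rows.

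All 12 H3 rows rose in the averaged comparison, with a median of 0.84. Hist2h3b rose by 1.16 ± 0.31 in wild-type cells (adjusted p = 0.0434), at 82.5 and 44.6 FPKM in wild-type term-diff against 21.5 and 33.0 in wild-type stem-like libraries. In Cd69-/- cells it stood at 74.7 and 75.4 FPKM in term-diff against 33.9 and 47.2 in stem-like libraries (0.89 ± 0.31, adjusted p = 0.116). Hist2h3c2 had values of 0.88 ± 0.26 in Cd69-/- (adjusted p = 0.0778) and 1.08 ± 0.26 in wild-type cells (adjusted p = 0.0327). The wild-type calls of Hist2h3b and Hist2h3c2 held in 2 and 3 of 8 fits without 1 library, and their averaged calls in all 8. Of the H3 rows with the call in wild type, all 3 (Hist2h3b, Hist2h3c1 and Hist2h3c2) lie in the chromosome 3 block, and the 2 with the call in Cd69-/- cells (Hist1h3a and Hist1h3c) lie in the second block of chromosome 13. Hist2h3b, Hist2h3c1 and Hist2h3c2 share 78.45%, 100% and 62.54% of their read-length stretches with other genes, so they may not be separate observations. The test of the difference in subset change between genotypes passed for 0 of the 71 rows with limma, where 0.0307% of all rows passed in either direction; 0 had an unadjusted p under 0.05, and 0 passed with voom.

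H4 was the family with the lowest median. The averaged median was 0.70, and 8 of 14 H4 rows rose; without Hist1h4n copy 1 they were 0.66 and 8 of 13. The highest H4 row was Hist1h4d, at 217 ± 8.50 FPKM in Cd69-/- term-diff, 166 ± 36.4 in wild-type term-diff, 139 ± 15.2 in Cd69-/- stem-like and 106 ± 16.6 in wild-type stem-like libraries (SD, n = 2 each), and it rose by 0.63 ± 0.15 averaged (adjusted p = 0.0182). Hist2h4 was the H4 row past the threshold in both genotypes, at 49.2 and 56.8 FPKM in Cd69-/- term-diff, 37.5 and 27.7 in wild-type term-diff, 20.5 and 29.7 in Cd69-/- stem-like and 20.4 and 15.7 in wild-type stem-like libraries. It rose by 1.07 ± 0.22 in Cd69-/- (adjusted p = 0.0216) and by 0.81 ± 0.22 in wild-type cells (adjusted p = 0.0471). Hist1h4k rose in the averaged comparison (0.79 ± 0.18, adjusted p = 0.0163), and Hist1h4n copy 2, with 0.66 ± 0.22 (adjusted p = 0.0749), did not pass. The averaged calls of Hist1h4d and Hist1h4k held in 4 and 5 of 8 fits without 1 library. Hist4h4, the single gene of its locus, had 0.45 ± 0.24 in Cd69-/-, 0.24 ± 0.24 in wild-type and 0.34 ± 0.17 in averaged cells (adjusted p = 0.301, 0.579 and 0.201). Its level was 7.15 ± 0.798 FPKM in Cd69-/- term-diff, 5.06 ± 2.40 in wild-type term-diff, 4.98 ± 0.405 in Cd69-/- stem-like and 3.94 ± 0.319 in wild-type stem-like libraries (SD, n = 2 each). The 10 rows not past the threshold when averaged were 6 of H4 (Hist1h4h, Hist1h4i, Hist1h4m, both Hist1h4n rows and Hist4h4), with Hist1h1a, Hist2h2ab, Hist3h2ba and Hist3h2bb-ps.

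By place, 22 of 26 rows of the first block of chromosome 13, 28 of 30 tested of the second, 10 of 11 tested of the chromosome 3 block, 1 of 3 of the Hist3 block and 0 of 1 of Hist4 rose in the averaged comparison. The averaged medians were 0.87, 0.88, 0.97 and 0.61, with Hist4h4 at 0.34. Grouped by read-length stretches found in another gene too, 6 of 9 rows with under 10% of them shared rose (median 0.75), as did 26 of 30 with 10% to 50% (median 0.83) and 29 of 32 with over 50% (median 0.90). Rows of low share thus held large values, led by Hist1h1b and Hist1h1d, and low ones, Hist4h4 and Hist1h1a among them. The share covers whole annotated transcripts. Of these, 4884 of 7425 bases in Hist1h1d and 2445 of 2863 in Hist4h4 lie past the stem-loop. The share up to the stem-loop was not counted. Hist1h1b and Hist1h1a share no stretch at all.

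**Figure D4:**
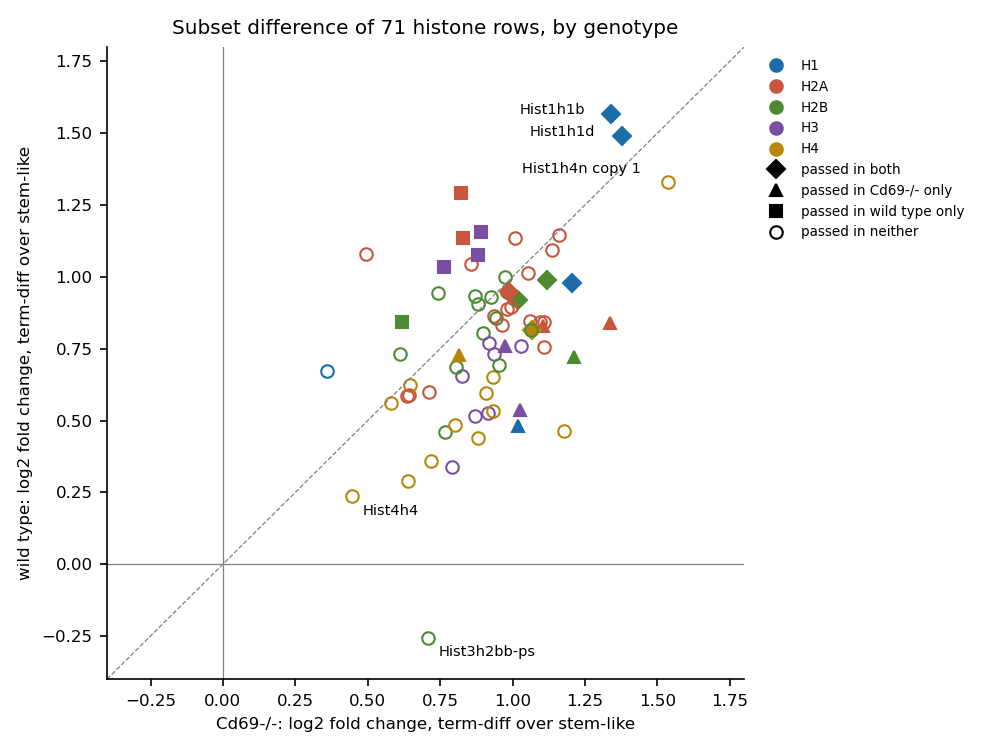
Each point is 1 of 71 histone rows, with its log2 fold change of term-diff over stem-like in Cd69-/- (x axis) and in wild-type cells (y axis), coloured by family; filled marks passed the limma threshold in at least 1 genotype and the dashed line marks equal values. Only Hist3h2bb-ps lies below 0 on either axis, at -0.26 in wild type, and Hist1h1b and Hist1h1d lie at the upper right.

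In both genotypes 7 rows passed: Hist1h1b, Hist1h1d, Hist1h1e, Hist1h2bg, Hist1h2bn, Hist2h2ac and Hist2h4. They cover H1, H2A, H2B and H4. In at least 1 genotype 20 rows passed. The shares of all rows that did so were not counted. Of all rows, 3.88% rose in Cd69-/- and 7.24% in wild-type cells, so no more than 3.88% can have risen in both. The genotypes were compared with separate libraries for both subsets, so the 2 sets of fold changes share no library. The tests of a row in the 2 genotypes used the same variance estimate from all 4 groups, so the calls are not independent.

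Between genotypes, no histone row passed the threshold. The mean sum of FPKM was 1.35 times as high in Cd69-/- as in wild-type term-diff cells and 1.27 times in stem-like cells. The median log2 fold change of Cd69-/- over wild type was 0.48 in term-diff, 0.34 in stem-like and 0.39 in averaged cells, against -0.05, 0.06 and 0.00 over all rows. The fold change was above 0 for 71, 67 and 70 of 71 histone rows, against 42.0%, 62.6% and 50.4% of all rows. Without 1 library the term-diff median ran from 0.08 (without the second wild-type term-diff library) to 0.87 (without the first). The stem-like median ran from 0.13 (without the second Cd69-/- stem-like library) to 0.54 (without the first), and the averaged median from 0.20 to 0.61 (without the second and the first wild-type term-diff library). With limma 0 rows passed in each of these comparisons and 14, 4 and 19 had an unadjusted p under 0.05; with voom on the implied fragments 0 passed as well. Over all rows 0.194% passed in term-diff, 0.153% in stem-like and 0.542% in averaged cells, in either direction. Both Cd69-/- libraries stood above both wild-type libraries for 29 rows in term-diff (19.7% of all rows) and 37 in stem-like cells (26.3% of all rows).

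The smallest adjusted p between genotypes was that of Hist1h2ap copy 1, at 0.165 averaged over subsets, with a log2 fold change of 0.56 ± 0.14. It stood at 36.9 and 40.7 FPKM in Cd69-/- term-diff against 28.4 and 21.8 in wild-type term-diff libraries, and at 20.7 and 26.2 in Cd69-/- stem-like against 13.7 and 18.9 in wild-type stem-like libraries. Hist2h4 had 0.57 ± 0.16 averaged (adjusted p = 0.219). Without the first wild-type term-diff library 5 rows passed in the averaged comparison and without any other library 0. The direction rests on scaling: with each library brought to an equal sum of FPKM the medians were -0.57, -0.19 and -0.36 in term-diff, stem-like and averaged cells, while the median of all rows moved to -0.90, -0.39 and -0.65, so the histone rows again lay above the rest. Without both second wild-type libraries, which had the lowest small RNA shares of the FPKM sum, the medians were 0.08, 0.22 and 0.14. That setting was chosen after seeing the data.

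The spread behind these values lay mostly in 1 group. The second wild-type term-diff library was below the first for 70 of 71 histone rows, with a median difference of -0.82 on the log2 scale, where the median of all rows differed by 0.05. In the other groups the second library differed from the first by 0.22 in Cd69-/- term-diff, 0.41 in Cd69-/- stem-like and -0.13 in wild-type stem-like cells. Small RNA rows held 56.0% of the FPKM sum in the second wild-type term-diff and 63.6% in the second wild-type stem-like library, against 77.9% to 84.4% in the other 6. By implied fragments they held 5.52% and 8.46% in those libraries and 7.14% to 9.53% in the other 6. The part of this in the histone values was not tested.

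Genes that act on or beside the histone messages were measured as well. Among 32 genes of DNA synthesis in S phase, 0 rose in Cd69-/- term-diff cells (median 0.17), 20 rose in wild-type term-diff cells (median 0.66) and 19 rose in the averaged comparison (median 0.42). Of all rows, 3.88%, 7.24% and 10.5% rose in these comparisons. Mcm5, a subunit of the replicative helicase, stood at 12.9 and 15.7 FPKM in Cd69-/- term-diff, 18.4 and 21.5 in wild-type term-diff, 8.42 and 10.9 in Cd69-/- stem-like and 10.2 and 8.96 in wild-type stem-like libraries. It rose in wild-type (0.98 ± 0.16, adjusted p = 0.00633) and in averaged cells (0.76 ± 0.11, adjusted p = 0.00238), with 0.53 ± 0.16 in Cd69-/- cells (adjusted p = 0.0803). Mcm4 of the same helicase, the maintenance methyltransferase gene Dnmt1 and the thymidine kinase gene Tk1 also rose in the averaged comparison, by 0.55, 0.59 and 0.63.

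The 2 sets ranked the groups differently. The mean log2(FPKM + 1) of the 71 histone rows was 5.96 and 6.20 in Cd69-/- term-diff, 5.99 and 5.24 in wild-type term-diff, 4.96 and 5.36 in Cd69-/- stem-like and 4.90 and 4.75 in wild-type stem-like libraries. That of the 32 S phase genes was 2.86 and 2.95 in Cd69-/- term-diff, 3.16 and 3.34 in wild-type term-diff, 2.60 and 2.85 in Cd69-/- stem-like and 2.65 and 2.60 in wild-type stem-like libraries. The second wild-type term-diff library was thus the lowest of the term-diff libraries for histones and the highest for S phase genes. Between genotypes in term-diff cells, the S phase median was -0.37 and the histone median 0.48, and no gene of either set passed. For the difference of the subset change between genotypes, the S phase median was -0.51, the histone median 0.12 and that of all rows -0.10, with 0 calls in both sets, so the calls made in only 1 genotype are not shown to differ from the other. The sign of the histone median rested on single libraries: it was -0.24 without the second and 0.53 without the first wild-type term-diff library, and -0.07 without the first Cd69-/- stem-like library.

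**Figure D5:**
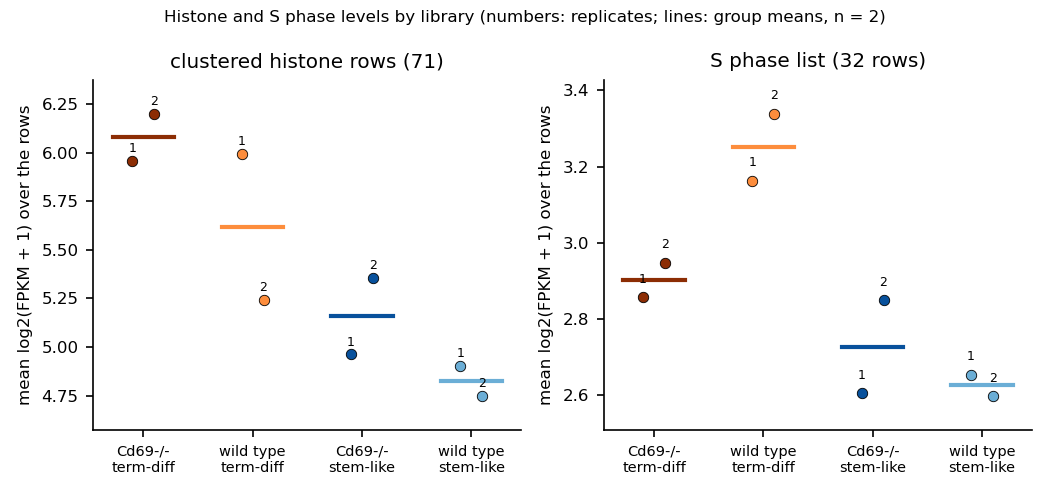
Mean log2(FPKM + 1) over 71 histone rows (left) and 32 S phase genes (right) in each library (y axes, not from 0), by group (x axis); points are libraries with their replicate number and lines are means of 2. Wild-type term-diff replicate 2 is at 5.24 on the left, below replicate 1 at 5.99, and at 3.34 on the right, the highest value there.

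Of 21 tested genes that make, process or degrade histone messages, 0 rose in Cd69-/-, 3 in wild-type and 4 in averaged cells. The averaged median was 0.01, and 3.88%, 7.24% and 10.5% of all rows rose in those comparisons. No test set the counts against these shares. The 4 were Upf1, an RNA helicase of mRNA decay (0.84), Slbp, which binds the stem-loops shown above (0.41), Casp8ap2, a component of histone locus bodies (0.37), and Eri1, an exonuclease of the stem-loop end (0.33). Slbp stood at 20.8 and 19.2 FPKM in Cd69-/- term-diff, 20.5 and 18.2 in wild-type term-diff, 13.0 and 16.2 in Cd69-/- stem-like and 13.8 and 15.2 in wild-type stem-like libraries, with all term-diff above all stem-like libraries, and rose by 0.41 ± 0.10 averaged (adjusted p = 0.0195). Rnu7, the U7 small nuclear RNA that guides the cut, was listed at 0 in every library. Of 10 tested histone genes outside the clusters, 0 passed in Cd69-/- cells, 2 rose and 1 fell in wild-type cells and 2 rose when averaged. Those were H2afx, the variant that marks DNA breaks (0.64 ± 0.12, adjusted p = 0.00711), and Cenpa, the centromeric H3 (0.61 ± 0.12, adjusted p = 0.00747). Whether the messages of these 10 genes follow replication was not tested. H2afj fell in wild-type term-diff cells (-0.59 ± 0.14, adjusted p = 0.0323). H3f3b, which encodes the replacement histone H3.3, had 0.34 ± 0.10 averaged (adjusted p = 0.055), at 102 and 92.8 FPKM in Cd69-/- term-diff, 107 and 109.5 in wild-type term-diff, 86.2 and 80.6 in Cd69-/- stem-like and 72.4 and 85.7 in wild-type stem-like libraries.

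Among 19 histone chaperone genes, 0 rose in Cd69-/-, 4 in wild-type and 3 in averaged cells. The averaged median was 0.08, and 3.88%, 7.24% and 10.5% of all rows rose in those comparisons. Here too no test set the counts against these shares. The 3 were Chaf1a and Chaf1b, subunits of the assembly factor that follows the replication fork (0.62 and 0.61), and Asf1b, which passes H3 and H4 to it (0.54). Nap1l1, a carrier of H2A and H2B, had 0.31 ± 0.10 (adjusted p = 0.0629). Of 4 general proliferation genes, 2 rose when averaged, Mki67 by 0.71 ± 0.12 (adjusted p = 0.00451) and Top2a by 0.56 ± 0.15 (adjusted p = 0.0314). Mki67, the source of the Ki-67 antigen, stood at 54.1 and 62.2 FPKM in Cd69-/- term-diff, 73.9 and 89.9 in wild-type term-diff, 40.6 and 52.3 in Cd69-/- stem-like and 35.9 and 39.5 in wild-type stem-like libraries.

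The labels were checked against defining genes. Cd69 stood at 2.21 to 3.69 FPKM in the 4 Cd69-/- libraries and 10.4 to 23.4 in the 4 wild-type libraries. The 8 CD8 T cell markers summed to 1555 and 1383 FPKM in Cd69-/- term-diff, 1112 and 1045 in wild-type term-diff, 1241 and 1203 in Cd69-/- stem-like and 1028 and 1186 in wild-type stem-like libraries. In Cd69-/- over wild-type term-diff cells all 8 were above 0, with a median log2 fold change of 0.50 beside the histone median of 0.48, and their part in the histone values was not tested. The 5 B cell markers summed to at most 0.616 FPKM. The 5 myeloid markers summed to 2.05 to 4.89 FPKM in term-diff and 4.85 to 7.22 in stem-like libraries, and were lower in term-diff cells within each genotype. Of the tumour and stroma markers, Pecam1 stood at 4.23 to 5.96 FPKM in term-diff and 10.7 to 13.8 in stem-like libraries, while the other 4 summed to 0.607 to 1.05 and 0.527 to 1.28, with overlap. Of the CD4 and regulatory T cell markers, Cd4 stood at 1.38 to 4.01 FPKM in term-diff and 2.53 to 5.52 in stem-like libraries and Foxp3 at 0.211 to 0.291 and 0.423 to 1.14; the full list summed to 66.5 to 108.9 and 91.5 to 104, nearly all from a gene that activated CD8+ T cells express too. Erythroid markers summed to 0.578 to 2.49 and 0.665 to 0.930. The part of the myeloid markers and of Pecam1 in the histone values was not tested.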

How the data were processed

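RNA of 8 libraries, 2 in each of 4 groups by the labels, was made into libraries with a stranded SMARTer kit for small amounts of total RNA and read single-end for 76 cycles, per the labels' protocols. Build mm10 and the tools Cufflinks 2.2.1, TopHat 1.3.2, Bowtie2 2.3.4 and bcl2fastq 2.20 are listed, per the submitters' processing notes. Annotation, strand setting and FPKM total are not given in the sources used here, so a row and an antisense partner, or near copies, may share reads. The authors deposited FPKM with confidence limits. Fragments were implied from each FPKM and its upper limit, on the assumption, stated in no source used here, that the limit lies 2 square roots of the fragment count above the value; fragment counts, fragment shares and voom results rest on it. Values were tested as log2(FPKM + 1) with limma 3.58.1 in R 4.3.3 (4 group means, trended moderated variance, two-sided, Benjamini-Hochberg over 9782 rows, threshold 0.05), after the code was tested on simulated data. On that scale the changes of low rows are understated. Every histone row is accounted for, and values per library are given for those past the threshold with the largest change, up to 6 per direction and comparison, and for the 12 of highest mean FPKM. Other rows and genes named were chosen after their values were seen. The members, gene lists and tests were chosen with earlier results of these data known. Alternatives were other pseudocounts, filters, scalings, a replicate block, voom and leaving out libraries.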

Additional observations from a re-analysis of the deposited data

How the results depend on the processing

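In wild type, the 13 histone rows that rose became 2 with no filter, 37 with a filter of 10 implied fragments, 3 with median-of-ratios scaling, 1 with an equal sum of FPKM, 4 with the replicate block, 29 with voom, 2 with only the groups compared and 2 to 47 without 1 library. In Cd69-/- cells the 14 became 2 with no filter, 48 with 10 implied fragments, 6 with quantile normalization, 0 with an equal sum of FPKM, 56 with voom, 48 with only the groups compared, 48 without both wild-type replicate 2 libraries (chosen after seeing the data) and 0 to 45 without 1 library. The averaged 61 became 16 with no filter, 1 with an equal sum of FPKM and 21 to 69 without 1 library. Between genotypes, averaged over subsets, the count was 0 to 5 without 1 library. The cause of these moves was not tested, except that no filter tests more rows and leaving out a library uses fewer samples. Under an equal sum of FPKM the Cd69-/- minus wild-type medians were -0.19 in stem-like, -0.57 in term-diff and -0.36 in averaged cells, and the log2 ratios of the summed FPKM -0.20, -0.59 and -0.39. With the sum taken without small RNA rows, chosen after seeing the data, 19, 12 and 61 histone rows rose in wild-type, Cd69-/- and averaged cells. Of all 9782 rows, 571, 256 and 753 rose there. Hist1h4n copy 2 stood at -0.10 in wild type without the first wild-type term-diff library and at 0.98 without the second. Replicate numbers are shared in the labels with no statement that they pair libraries, and the correlations of the libraries' deviations ran from -0.30 to 0.15. With the replicate block 4, 10 and 57 histone rows rose in wild-type, Cd69-/- and averaged cells, beside 571, 300 and 930 of all 9782 rows. The implied fragments limit single rows: the median over rows of the lowest library was 52.8.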
